A study of Mus musculus with 5 samples.

Results

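Imprinted genes are expressed mainly from 1 parental copy, and many of them carry a differentially methylated region (DMR), a stretch of CpGs methylated on the copy from 1 parent and free of methylation on the other. At DMRs set in the germ line this difference survives the wave of demethylation after fertilisation, and its upkeep in early embryos is known to rely on the KRAB zinc finger protein ZFP57, which binds the methylated hexamer TGCCGC, and on its partner TRIM28, which brings in the H3K9 methyltransferase Setdb1. In cells that divide in culture, the maintenance methyltransferase Dnmt1 copies the pattern at replication. The 43 imprinted genes described here lie outside the Kcnq1 domain, and a gene was represented by the CpG positions within its body or up to 5 kb on either side (GENCODE M21, mm10) with at least 10 calls on the allele in every one of the 5 libraries. A call is the state of 1 cytosine in 1 read, a position is 1 cytosine on 1 strand, and mC is the share of calls that were methylated.

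CpG methylation was read by enhanced reduced representation bisulphite sequencing (eRRBS), which samples MspI fragments that are mostly CpG rich, in female mouse embryonic fibroblasts taken at E13.5. The Female control group held 3 libraries, Setdb1+/+ and Xist-deltaA/+ with a Nonsilencing hairpin. The Setdb1 depleted group held 2 libraries, Setdb1+/gt (1 gene trap copy) and Xist-deltaA/+ with the hairpin shSetdb1, so genotype and hairpin differed together, and the Xist deletion was common to all 5. The study's methods speak of replicate experiments but name no separate embryo or culture for each library, so p-values measure the spread between these libraries. Setdb1 mRNA and fibroblast markers cannot be checked in methylation calls. Every dam was 129/C57 and every sire castaneus (CAST), so parent of origin and strain cannot be told apart. The allele sets were numbered rather than named, and the set called maternal here was assigned from the methylation known for imprinted genes, so the direction of the allele differences below is not a finding. Each library held 9440874 to 10558931 calls per allele, and at least 48.9% of the autosomal calls of any library were paternal.

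Of the 43 genes, 37 had at least 1 position on either allele. The 6 without one were Nap1l5, Ube3a, Ndn, Magel2, H19 and Mirg. There were 440 positions in all: 297 on the maternal allele, of 162007 autosomal positions, and 300 on the paternal allele, of 167622. Of these, 157 were covered on both alleles, 140 on the maternal and 143 on the paternal allele alone. Median depth was 45.0 to 53.0 maternal and 40.0 to 56.0 paternal calls per position.

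The stretches on which the results turn are shown from the RefSeq GRCm38 genome, top strand, with the CpGs that had a position in capitals. The first 3 carry allele-different positions, and those at Mcts2 and Inpp5f are shown because calls were divided unequally between the alleles there.
Snrpn, chr7:60005140-60005203: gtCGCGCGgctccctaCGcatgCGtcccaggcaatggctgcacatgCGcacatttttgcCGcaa
Peg13, chr15:72809789-72809970: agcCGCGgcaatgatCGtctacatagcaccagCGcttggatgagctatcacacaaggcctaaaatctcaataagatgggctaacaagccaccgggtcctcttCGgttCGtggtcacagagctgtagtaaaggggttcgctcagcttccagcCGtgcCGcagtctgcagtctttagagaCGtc
Igf2r, chr17:12769793-12769824: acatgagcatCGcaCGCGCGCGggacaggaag
Mcts2, chr2:152686870-152687034: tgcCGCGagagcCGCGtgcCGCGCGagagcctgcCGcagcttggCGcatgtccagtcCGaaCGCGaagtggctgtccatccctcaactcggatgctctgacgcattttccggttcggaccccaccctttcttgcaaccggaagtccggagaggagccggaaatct
Inpp5f, chr7:128688132-128688303: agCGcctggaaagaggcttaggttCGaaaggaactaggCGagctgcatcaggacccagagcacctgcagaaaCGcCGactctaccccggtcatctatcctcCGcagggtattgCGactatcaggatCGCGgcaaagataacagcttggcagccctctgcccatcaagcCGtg
The hexamer TGCCGC, searched on both strands, starts at 60005196 in the Snrpn stretch, at 72809793 and 72809942 at Peg13, at 152686870, 152686886 and 152686901 at Mcts2, and at 128688259 at Inpp5f. The Igf2r stretch has no match.

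Allele-different positions were those where mC differed by 50 points or more between the alleles, on the mean of both groups. There were 31 of them among the 157 covered on both alleles, 26 higher on the maternal and 5 higher on the paternal allele. Over all 82364 autosomal positions covered on both alleles, 0.187% were higher by 50 points on the maternal and 0.115% on the paternal allele. They fell in 6 places: Zrsr1 (10), Snrpn (7), Impact (5), Igf2r (5), Peg13 (3) and Gnas (1), where Zrsr1 lies in an intron of Commd1, Peg13 in an intron of Trappc9, and the Igf2r positions in an intron of Airn. The smallest allele difference in this class was 62.2 points, at Igf2r, and the largest outside it was 40.1 points, at 1 position in an intron of Igf2 (chromosome 7, 142665639), the growth factor gene expressed from the paternal copy, with 48.5% maternal and 88.6% paternal mC.

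**Figure D1:**
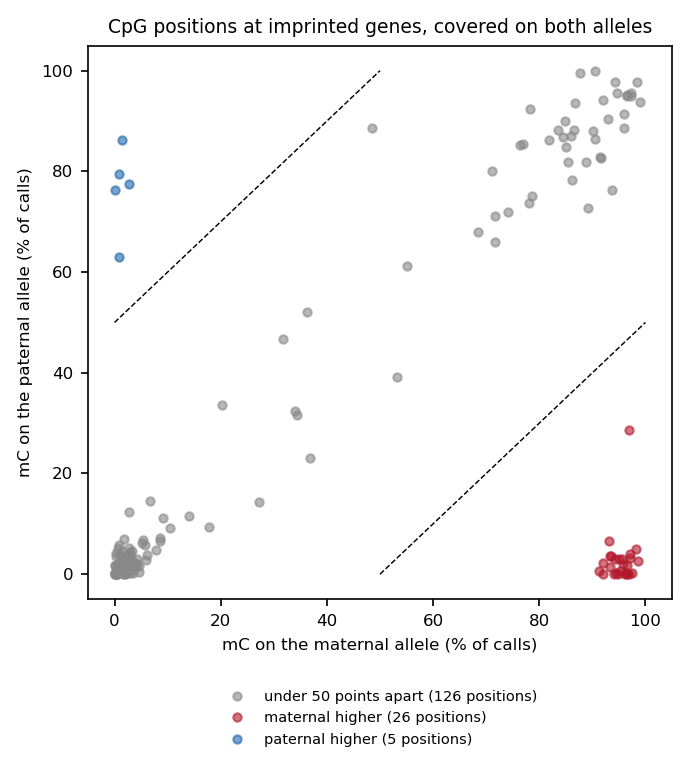
Each point is 1 of the 157 CpG positions covered on both alleles, with mC on the maternal allele on the x axis and on the paternal allele on the y axis (% of calls, mean of the group means); dashed lines mark a difference of 50 points. The 26 maternal-higher and 5 paternal-higher positions stand in opposite corners and the other 126 lie between the lines.

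At Snrpn, whose DMR lies in the imprinting centre of the domain related to Prader-Willi syndrome, the 7 positions (chromosome 7, 60005143 to 60005200, intronic) had 97.0%, 95.6% and 96.7% maternal mC in the Female control libraries and 94.5% and 93.8% in the Setdb1 depleted libraries. Both depleted libraries lay below all 3 controls, by 2.29 points on average (exact permutation p = 0.1, the smallest that 10 labellings of 3 and 2 libraries allow). Paternal mC was at most 0.172% in any library. Over all 12 maternal positions of the gene, which include these 7, the depleted group was 0.532 points higher, with overlap. With the calls of each group pooled it was 6.50 points higher, the opposite direction.

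Zrsr1 is a retrogene that is transcribed from the paternal copy. Its 10 positions (chromosome 11, 22972010 to 22974145, UTR and coding exon) had 95.1%, 96.7% and 93.2% maternal mC in controls and 94.6% and 96.6% in depleted libraries. Paternal mC there was 1.29%, 6.41% and 4.81% against 3.00% and 1.31%. The groups overlapped on both alleles, with differences of 0.623 points (exact permutation p = 0.8) and -2.01 points (exact permutation p = 0.5).

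Impact encodes a regulator of translation under stress. Its 5 intronic positions (chromosome 18, 12973400 to 12973448) had maternal mC of 92.4%, 94.0% and 95.7% in controls and 100% and 92.4% in depleted libraries, and paternal mC of 1.68%, 8.79% and 1.62% against 0% and 2.92%. Neither allele separated the groups at these 5. At the start of the gene (12955858 to 12955910, UTR) 4 positions, both strands of the same CpGs, were covered on the maternal allele alone. They had 11.5%, 10.9% and 12.9% in controls against 4.01% and 5.52%, which is -7.00 points without overlap. Of all autosomal maternal positions taken singly, 9.89% did not overlap, and no such share was computed for means over 4 positions. Over all 11 maternal positions of the gene the difference was -0.728 points with overlap, and 0.0972 points with the calls of each group pooled. At Peg13, a noncoding RNA made from the paternal copy, the 3 positions (chromosome 15, 72809804 to 72810615, exon and upstream) had 89.6%, 96.6% and 89.3% maternal mC in controls and 97.7% and 95.9% in depleted libraries. Paternal mC was 0% in 4 libraries and 0.901% in Setdb1 depleted replicate 1.

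The single position at Gnas, which encodes the stimulatory G protein alpha subunit and has several imprinted promoters, lay in a coding exon (chromosome 2, 174298139). It had 94.8% to 100% maternal mC, and an intermediate paternal level of 28.2%, 24.4% and 40.4% in controls and 32.7% and 19.7% in depleted libraries, from 39 to 82 calls.

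Igf2r, the receptor that clears IGF2 and is expressed from the maternal copy in most tissues, was the only place where the paternal allele was the methylated one. Its 5 top-strand positions (chromosome 17, 12769803 to 12769813) lie 139 to 149 bases upstream of the Igf2r start. Paternal mC was 84.6%, 63.8% and 78.0% in controls and 81.8% and 73.3% in depleted libraries, from 11 to 21 calls per position, and maternal mC was at most 3.16%. The paternal spread of the controls (SD 10.6, n = 3) was the largest of the 6 places, and the group difference of 2.10 points lay within it (exact permutation p = 0.9). Over every call of the stretch, both strands included, paternal mC was 34.7% to 49.6%, and with the strands summed none of the 5 CpGs was in the allele-different class.

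**Figure D2:**
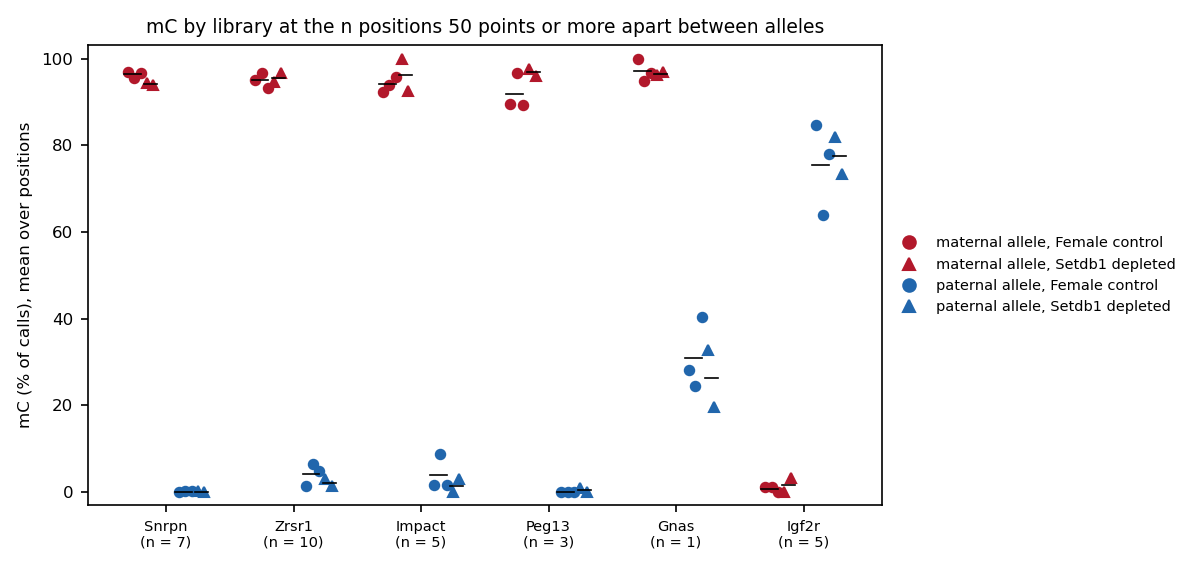
Each point is the mean mC of 1 library (% of calls, y axis) over the n allele-different positions of a gene, on the maternal (red) and paternal (blue) allele, for Female control (circles) and Setdb1 depleted (triangles), with lines at the group means. At every gene and in every library the methylated allele has at least 63.8% and the other at most 40.4%, and the largest shift of a group mean, 4.98 points at Peg13, overlaps the control spread.

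Over all 31 allele-different positions the methylated allele averaged 91.8% ± 1.19 (SD, n = 3 control libraries) against 92.6% ± 1.58 (SD, n = 2 depleted libraries), which is 0.840 points more with depletion (exact permutation p = 0.6). The unmethylated allele averaged 3.13% ± 1.36 (SD, n = 3) against 2.09% ± 0.0737 (SD, n = 2), or -1.04 points (exact permutation p = 0.4). The gap between the alleles was 91.3, 86.2 and 88.5 points in controls and 91.6 and 89.5 points in the depleted libraries, 1.88 points wider on average (exact permutation p = 0.4). The groups overlapped in all 3 measures. The first of them turned to -0.278 points without Setdb1 depleted replicate 1. By gene the gap differed by -2.26 points at Snrpn, with no overlap, and by 1.23 to 4.78 points at the other 5, all overlapping.

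Single reads were sorted by pattern at the same positions. These were chosen for a large allele difference, so mostly uniform reads follow from that choice. The shares therefore do not tell whole molecules from scattered calls. Reads with 3 or more calls at these positions were sorted into all methylated, none methylated and mixed. On the methylated allele 73.2%, 76.9% and 77.5% of the reads of the controls and 80.3% and 77.0% of those of the depleted libraries were methylated at every call (213 to 283 reads per library), and 0.353% to 2.50% had no methylated call. On the unmethylated allele 92.9% to 97.5% of reads had no methylated call (284 to 508 reads per library). Fully methylated reads on that allele made up 3.09% in Female control replicate 2 and 0% to 0.591% in the other 4 libraries. None of the shares separated the groups (exact permutation p = 0.4 to 1).

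**Figure D3:**
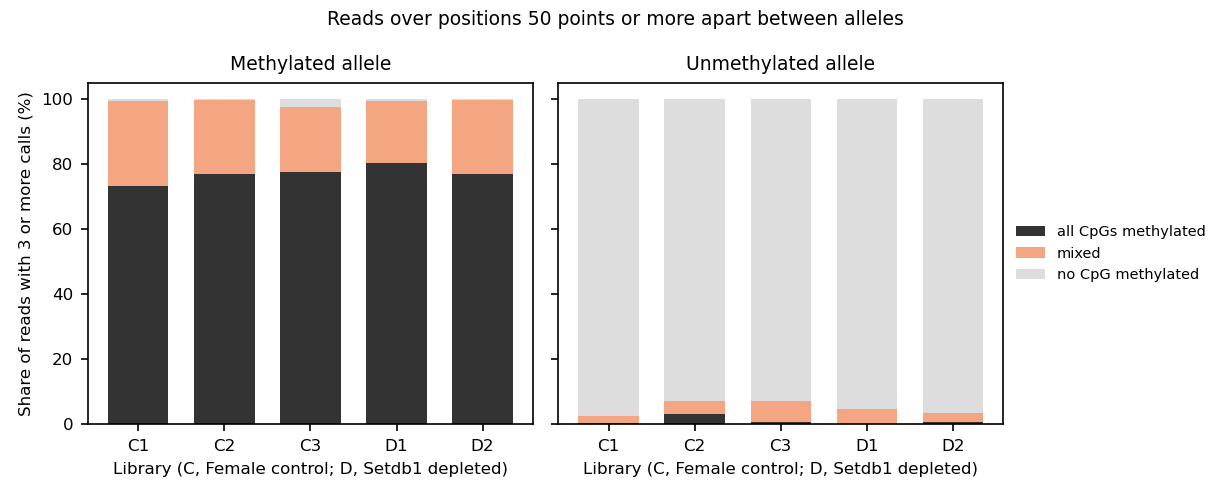
Bars give the share of reads (%, y axis) with 3 or more calls at allele-different positions whose calls were all methylated, mixed or not methylated, for each Female control (C) and Setdb1 depleted (D) library. Most reads are uniform, fully methylated on 1 allele and unmethylated on the other, in both groups, at positions chosen for that allele difference.

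The positions under 50 points apart were of 2 main kinds. Of the 126, 69 were under 10% on both alleles, of which 42 were at Kcnk9, a potassium channel gene, and 15 at Plagl1, a zinc finger gene, and 39 were over 70% on both alleles. Of the remaining 18, 8 lay downstream of Peg13 within Trappc9. The 126 averaged 32.9% ± 0.534 (SD, n = 3) on the maternal allele of the controls against 33.1% ± 0.394 (SD, n = 2) with depletion, and 33.3% ± 0.946 (SD, n = 3) against 33.2% ± 0.732 (SD, n = 2) on the paternal allele. The shifts, 0.210 and -0.135 points, were no larger than the SD of the controls (exact permutation p = 0.7 and 0.9), and their sign changed with the processing.

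Of the 140 positions covered on the maternal allele alone, 82 were under 10% and 32 over 70%. Their mC was 28.5%, 28.3% and 28.1% in controls against 27.8% and 26.6% with depletion. Both depleted libraries lay below the controls, by 1.15 points on average (exact permutation p = 0.1, the smallest possible), which was -0.572 points without Setdb1 depleted replicate 2 and -1.74 points without Setdb1 depleted replicate 1. The same difference was -0.191 points with a minimum of 5 calls and -3.98 points with calls pooled over the positions. Of the 143 positions on the paternal allele alone, 93 were under 10% and 25 over 70%, and mC was 26%, 21.1% and 19.9% in controls against 22.2% and 21.6% with depletion (difference -0.406 points, exact permutation p = 1). Without Female control replicate 1 this difference was 1.43 points. Without the 16 positions at Mcts2 it was 1.21 points (exact permutation p = 0.3).

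Position by position, the quasi-binomial model with Benjamini-Hochberg adjustment called 0 of 297 maternal and 0 of 300 paternal positions, where 0.016% and 0.00179% of all autosomal positions were called. At an unadjusted p under 0.05 it passed 7 maternal positions (2.36%, against 2.27% of all) and 25 paternal ones (8.33%, against 2.32%). Of the 25, 16 were at Mcts2, and the other 9 were 3.17% of the 284 paternal positions elsewhere. limma on log ratios called 0 on either allele after adjustment. At an unadjusted p under 0.05 it passed 21 of the 297 maternal and 20 of the 300 paternal positions. Over all autosomal positions it passed 5.23% on the maternal and 5.18% on the paternal allele. Control and depleted libraries were fully separated at 38 maternal positions (12.8%, against 9.89% of all) and 33 paternal positions (11%, against 9.6%), 18 of them lower in depleted libraries on each allele. The median difference of the positions was 0 points on both alleles, as it was over all autosomal positions. On the maternal allele 143 positions were lower, 116 higher and 38 equal, and on the paternal allele 130, 118 and 52. The mean difference was -0.388 points maternal and -0.337 points paternal, the latter with Mcts2 included. Over all autosomal positions it was 0.0237 and 0.0158 points.

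Gene windows were tested on the summed calls of all positions of a gene, for the 26 windows on each allele that held at least 3 positions. The levels given below are means over the positions of a window. By these means control and depleted libraries were fully separated in 5 of the 26 maternal and 6 of the 26 paternal windows. The share over all autosomal windows was not computed, so a window without overlap does not set a member apart. Genes that overlap share positions, so Commd1 and Zrsr1, Blcap and Nnat, H13 and Mcts2, Igf2r and Airn, and Trappc9 and Peg13 were not independent. The model called 0 windows on both alleles, against 0.0195% of maternal and 0.025% of paternal windows in the genome. At an unadjusted p under 0.05 it passed 1 on each allele, Zim1 maternal and Mcts2 paternal, where 4.76% and 4.58% of all windows did, and limma passed 2 maternal and 0 paternal ones, where it passed 5.7% and 5.56% of all. Fisher's exact test on calls pooled by group, which ignores the spread between libraries, called 7 of 297 maternal and 25 of 300 paternal positions after adjustment. Over all autosomal positions it called 2.46% on the maternal and 2.36% on the paternal allele. By the same test 4 maternal and 7 paternal windows passed, where 20% and 20.5% of all did.

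**Figure D4:**
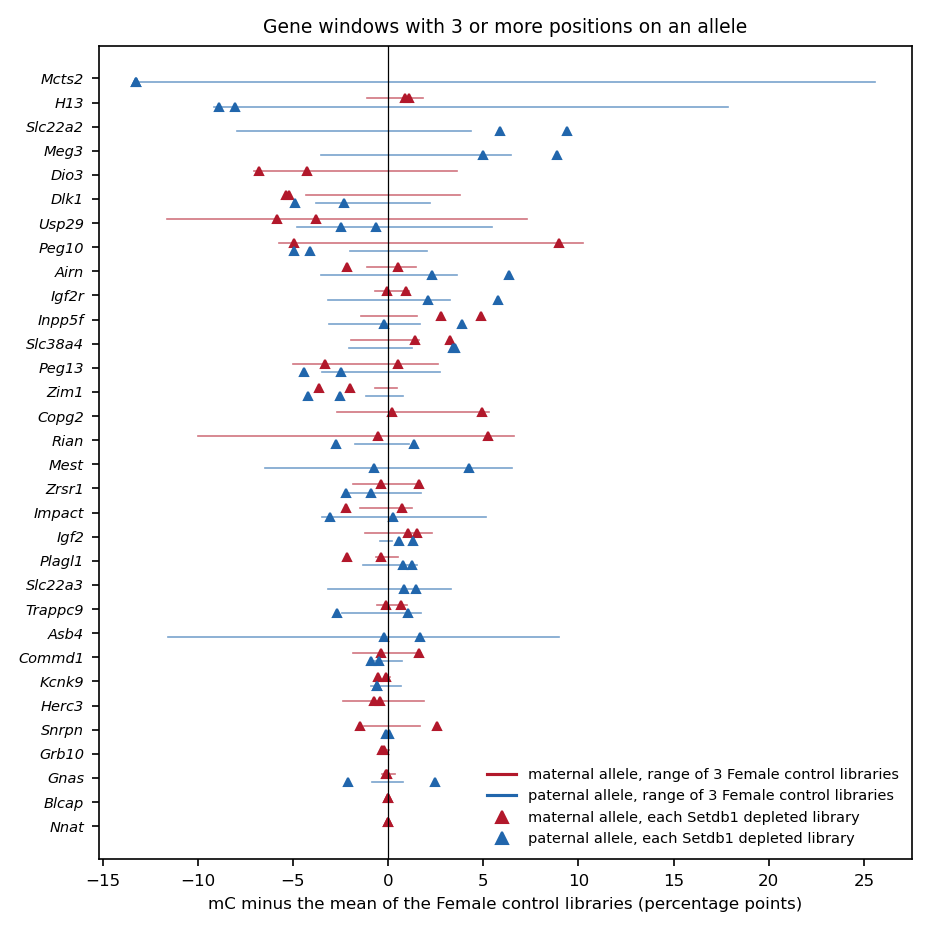
For each gene window with 3 or more positions (1 line each), triangles give mC of each Setdb1 depleted library minus the mean of the Female control libraries (percentage points, x axis) and lines give the range of the 3 controls, for the maternal (red) and paternal (blue) allele. Most triangles lie within or near the control range, and the long lines at Mcts2 and H13 come from 1 control library.

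On the maternal allele the windows with 5 or more positions that moved most were Dio3, Dlk1, Usp29, Inpp5f and Zim1. Dio3, the thyroid hormone-inactivating deiodinase at the end of the Dlk1 cluster, had 23.3%, 23.5% and 12.8% in controls against 15.6% and 13.1% with depletion, which overlapped. Dlk1, a Notch-like ligand gene expressed from the paternal copy, had 30.4%, 22.3% and 27.0% against 21.4% and 21.2%, and Usp29, of the Peg3 domain, 80.1%, 83.1% and 64.2% against 69.9% and 72.0%. Only Dlk1 separated the groups of these 3, by -5.28 points on 7 positions, with -1.94 points in its pooled calls (adjusted p = 1, quasi-binomial model). Where more than 20 calls were asked for, 1 of its 7 positions remained, 109448505, whose own difference is 4.85 points. Without Female control replicate 1 the Dlk1 window differed by -3.38 points. The Usp29 difference of -4.82 points was -1.17 points without Female control replicate 2 and -10.6 points without Female control replicate 3, and that of Dio3 ranged from -9.04 to -3.70 points when 1 library was left out.

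Zim1, a zinc finger gene beside Peg3, was lower in depleted libraries on both alleles without overlap. The maternal window had 32.6%, 32.3% and 31.5% in controls against 30.1% and 28.5% with depletion (12 positions, p = 0.0349 in the quasi-binomial model and adjusted p = 1). Its difference of -2.81 points was -6.68 points with calls pooled. Where more than 20 calls were asked for, the 4 positions of the coding exon dropped out and the 8 at the start of the gene had -0.452 points. The paternal window had 32.1%, 30.2% and 31.7% against 27.1% and 28.8% (13 positions, adjusted p = 1 in the same model). The 8 positions at its start averaged at most 1.68% in any library on both alleles. In the coding exon (chromosome 7, 6677545 to 6678078) maternal mC was 97.8%, 97% and 91% against 90.0% and 85.5%, and paternal mC 83.5%, 78.1% and 82.1% against 70.5% and 74.9%. Fully methylated maternal reads in that exon made up 91.3%, 88.0% and 72.0% of the controls' reads and 60.0% and 42.1% of those of the depleted libraries. These came from 15 to 25 reads per library (exact permutation p = 0.1, the smallest possible). They are drawn from the calls of the same positions, so they are not separate support for the shift. Paternal reads there did not separate the groups, with 62.8%, 62.9% and 88.6% against 63.6% and 74.4%.

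On the paternal allele the windows with 5 or more positions that moved most were Mcts2, H13, Meg3, Airn and Igf2r. Slc22a2, with 3 positions, moved by 7.65 points, and Peg10, also with 3, by -4.52 points. Meg3, a long noncoding RNA made from the maternal copy, had 84.2%, 94.2% and 84.8% paternal mC at 5 exonic positions in controls and 96.6% and 92.7% in depleted libraries, which overlapped. The paternal windows of Airn, the antisense RNA that silences the Igf2r cluster in cis, and of Igf2r shared their positions upstream of Igf2r. The Airn window had 55.3%, 48.2% and 51.6% in controls and 54.0% and 58.0% in depleted libraries, and the Igf2r window 59.1%, 52.7% and 55.8% against 58.0% and 61.7%. Both overlapped.

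Mcts2 is a retrogene within an intron of H13, the gene of a signal peptide peptidase. Its CpGs had positions on the paternal allele only, 12 upstream of the gene and 4 at its start (chromosome 2, 152686873 to 152687094). Paternal mC was 38.9% in Female control replicate 1, and 0.249%, 0.825%, 0.0702% and 0.0625% in the other 4 libraries in the order of the groups. The window mean was thus 13.3 points lower in the depleted group with both of its libraries below every control, and without Female control replicate 1 it was -0.471 points. The H13 window, which includes these positions, went from -8.46 to 0.466 points when that library was left out. In that library 29.1% of 302 reads were fully methylated and 64.9% had no methylated call, while in the others no read was fully methylated.

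The calls of the same CpGs were also divided differently between the alleles in that library. Over the 12 upstream positions 99.2% of calls were paternal in Female control replicate 1, against 73.6% and 65.0% in the other controls and 63.1% and 75.7% in the depleted libraries. There were 12 maternal calls in it, 0 of them methylated, and 384 to 636 in the other libraries, of which 91.1% to 98.7% were methylated. At the 4 positions in the gene 95.6% of calls were paternal in Female control replicate 1 and 45.0% to 66.1% elsewhere, with 0 of 32 maternal calls methylated against 96.7% to 97.5%. In the other 4 libraries the region was thus methylated on the maternal and free of methylation on the paternal allele, and it missed the allele-different class only because 1 library had under 10 maternal calls at a position. Upstream in the H13 intron, at 152680730 and 152680748, all 134 calls of the same library at these 2 positions were paternal, against 31.4% to 47.4% elsewhere. Over every call between them, both strands included, it also had 39 maternal calls with 97.4% methylated, and its paternal share was 77.5% against 31.4% to 46.8%. Further on in H13 (152694010 to 152694031) its paternal share was 58.4%, within the 37.6% to 63.2% of the others. What set the division of calls in this library was not tested.

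Over all 5 libraries no Mcts2 position passed the threshold. Leaving out Female control replicate 2 or 3 gave 10 called paternal positions, all at Mcts2, of 17 and 16 called over the autosomes (0.0101% and 0.00955%). Leaving out replicate 1 gave 0, of 4 called (0.00239%).

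The paternal share differed by 30 points or more between libraries in 10 of the 80 stretches of neighbouring positions. In Slc22a2 (12584448 to 12584461) it was 97.9% in Female control replicate 1 and 43.7% to 51.8% elsewhere, with paternal mC of 87.1% in that library and 88.6% to 93.5% in the others. Upstream of Asb4 (5380170 to 5380249) it was 100% in Female control replicate 2 and 50.2% to 56.7% elsewhere, with paternal mC of 31.3% against 10.8% to 25.0%. Inpp5f, an inositol phosphatase gene with an imprinted internal transcript, also had 1 library with another division of calls. At 5 intronic positions (chromosome 7, 128688233 to 128688300) paternal mC over all calls was 29.5%, 3.33% and 26.9% in controls and 38.4% and 19.8% in depleted libraries. The low value was that of Female control replicate 2, the only library with many maternal calls there: 175 maternal calls with 97.1% methylated, and a paternal share of 60.7%, against 98.3% to 100% in the other 4. At 128611394 to 128611839 of the same gene that library again had the lower paternal share, 69.2% against 99.2% to 99.5%, but paternal mC was at most 0.542% in every library. A little upstream (128688135 to 128688208) the positions that met the 10-call minimum lay on the bottom strand for the maternal and on the top strand for the paternal allele. The maternal allele had 91.0%, 93.9% and 92.3% in controls and 97.3% and 95.2% in depleted libraries at 5 bottom-strand positions, higher in both depleted libraries by 3.82 points (adjusted p = 1, quasi-binomial model), and the paternal allele had 0.389% to 1.77% at 4 top-strand positions. Female control replicate 2 had 0 maternal calls on those 4, while 92.0% to 94.0% of the 44 to 168 maternal calls of the others were methylated. With the strands summed, CpGs here joined the allele-different class.

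**Figure D5:**
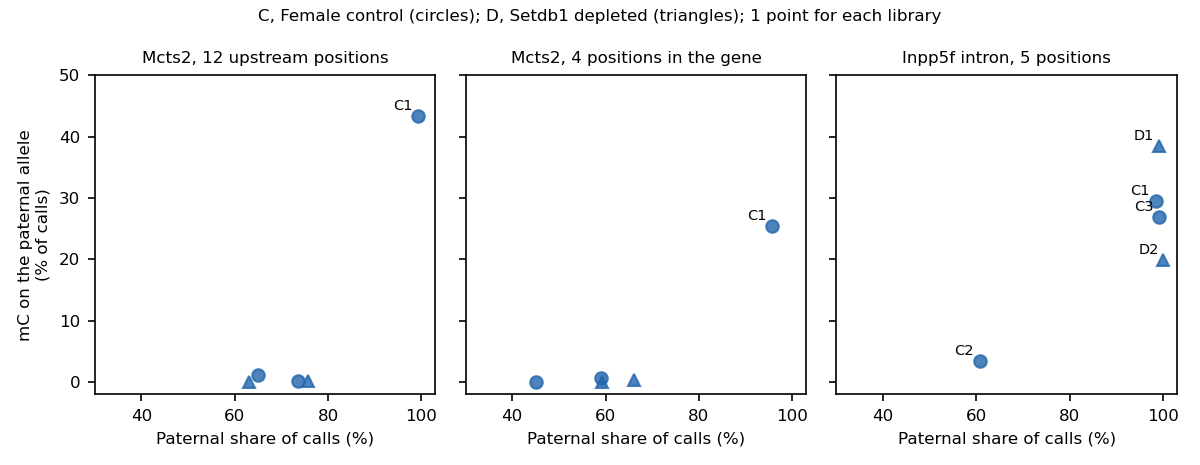
Points give, for each library, the paternal share of all calls (%, x axis) and mC on the paternal allele (% of calls, y axis) over 12 positions upstream of Mcts2, 4 in Mcts2 and 5 in an Inpp5f intron; circles are Female control (C) and triangles Setdb1 depleted (D). Libraries with a paternal share over 95% have 19.8% to 43.4% paternal mC, and those under 80% have at most 3.33%.

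Unequal coverage did not always come with intermediate mC. In 26 of the 80 stretches of neighbouring positions, 90% or more of the calls of every library were on 1 allele. On the allele with more calls the mean mC was under 10% in 7 of the 26, 10% to 70% in 7 and over 70% in 12, and in the other 54 stretches the counts were 13, 13 and 28. Places with both in every library included Usp29 (6937103 to 6937104, maternal mC 42.5% to 68.3%), Igf2 (142655667 to 142655712, paternal mC 11.3% to 25.2%) and Dio3 (110277568 to 110277628, maternal mC 12.8% to 24.5%). Another 3 are given in full because they touch allele-different positions. At the 5 Igf2r CpGs the bottom strand had 0 maternal calls and 200 to 365 paternal calls per library, with 26%, 32.5% and 25.2% mC in controls and 26.2% and 42.7% in depleted libraries, while the top strand of the same CpGs, read on both alleles, had 63.8% to 84.6%. At the CpG upstream of Peg13 (72810615) the paternal top strand had 0% to 2.70%, and the bottom strand, with 0 maternal calls, 49.2% to 53.5%. In Snrpn, 6 positions at 60004602 to 60004871 had 3.73% to 11% of their calls on the paternal allele and maternal mC of 35.4%, 45.6% and 35.5% in controls and 47.3% and 37.9% in depleted libraries. Positions on both strands of a CpG were compared on each allele, so a CpG covered on both alleles was counted once for each. Of these 120 strand pairs, 112 differed by under 10 points between strands and 6 by 30 or more. The 6 were the 5 at Igf2r and the 1 at Peg13. Among the 46 strand pairs with both strands covered on the other allele too, 0 differed by 30 points. What set the division of calls at these places was not tested.

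Among the genes seen wholly or partly on 1 allele was Grb10, the growth-restricting adaptor of insulin receptor signalling. Its 29 maternal positions had 0.497%, 0.511% and 0.588% in controls against 0.199% and 0.326% with depletion, which did not overlap. The 6 maternal positions shared by Blcap and Nnat were at 0% in every library, and 7 of the 8 maternal positions of Gnas were at 0% as well. The paternal calls at those 7, 56 to 112 per library, were also at 0%. Herc3 had 6 maternal positions at its start at 0% to 2.03% and 4 in an intron at 87.2% to 97.9%. Asb4 had 5 upstream paternal positions at 24.9%, 31.3% and 10.8% in controls and 24.0% and 22.1% in depleted libraries. Female control replicate 2 had 0 maternal calls there, and each other library had 104 to 159. Maternal mC was 49.7% and 27.4% in Female control replicates 1 and 3, and 37.9% and 53.8% in the depleted libraries. Mest, a paternally expressed gene, had 5 upstream paternal positions, and its paternal window had 81.8% to 94.8%. The position it shared with its neighbour Copg2 had 77.5% to 100% on both alleles, and Copg2 had 2 further maternal positions at 71.4% to 83.3%. Peg3, Mkrn3, Rtl1 and Sgce had 1 position each, on 1 allele. Mkrn3 had 98.9%, 93.7% and 94.4% maternal mC in controls and 73.6% and 94.1% in depleted libraries.

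Plagl1 had 4.72% to 5.89% maternal mC in controls and 5.02% and 3.23% in depleted libraries over 19 positions, and 5.01% to 7.83% against 7.62% and 7.11% on the paternal allele over 29. Kcnk9 had 2.20% to 2.42% against 1.76% and 2.17% over 72 maternal positions, without overlap, and 2.34% to 3.92% against 2.62% and 2.61% over 45 paternal ones. Igf2 had 34.3% to 37.8% against 37.0% and 36.5% on the maternal allele. Its paternal window separated the groups by 0.934 points, from 26.3% ± 0.367 (SD, n = 3) to 27.3% ± 0.532 (SD, n = 2), over 17 positions, but its pooled calls differed by -0.385 points, in the opposite direction (adjusted p = 1, quasi-binomial model). Slc38a4, an amino acid transporter gene, had 65.4%, 68.7% and 68.3% paternal mC against 70.8% and 71.0% over 9 positions. Slc22a2, an organic cation transporter gene, had 72.3%, 83.8% and 84.6% paternal mC in controls against 86.1% and 89.6% at the 3 positions of its window (adjusted p = 1, quasi-binomial model). The position at 12597401, with 12 to 24 calls, moved by 25.8 points and the other 2 by -1.43 points, with overlap. Without Female control replicate 1 the window differed by 3.69 points. With its relative Slc22a3 it had 1 to 4 positions per allele, with window means of 61.1% to 90.0%. Rasgrf1, a guanine exchange factor gene, had 2 positions per allele with 76.1% to 97.2%. Rian, a noncoding RNA of the Dlk1 cluster, had 51.1% to 67.7% on the maternal and 35.3% to 39.4% on the paternal allele, over 5 and 6 positions that were not all the same. In all, 12 maternal windows were lower and 12 higher in the depleted libraries, with 2 equal, and 14 paternal windows were lower and 12 higher.

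The hexamer TGCCGC within the 300 bases around the position was found at 14 of the 26 maternal-higher positions (53.8%), namely all those at Snrpn and Impact and 2 at Peg13, and at 0 of the 5 at Igf2r. It was found at 20.4% of all 247265 autosomal positions on either allele, and the 14 stand for 3 genes, so no test was made. The 10 at Zrsr1 had none in that window. Only 1 allele-different position, Snrpn 60005200, was itself the CpG of the hexamer.

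Among 25 further imprinted genes, 0 positions and 0 windows passed the threshold, with 6 of 165 maternal and 4 of 116 paternal positions at an unadjusted p under 0.05 (2.27% and 2.32% over all autosomal ones), and 2 of 12 maternal and 0 of 11 paternal windows (4.76% and 4.58% over all). Of their 55 positions covered on both alleles, 6 were allele-different, all maternal higher. They were 4 at Cdh15, 1 at Peg12, and the Gnas position above, which also lies by Nespas. At Cdh15, a cadherin gene, the 4 positions (chromosome 8, 122864737 to 122864777) had 46.9% to 100% maternal mC over the 5 libraries and 0% to 29.4% paternal mC. The Peg12 position (chromosome 7, 62463608) had 41.5% to 70.3% maternal mC over the 5 libraries and at most 3.28% paternal mC. Among 14 genes for the upkeep of imprints and DNA methylation, such as Zfp57, Trim28, Dnmt1 and Uhrf1, 0 positions and 0 windows passed, with 7 of 189 maternal and 2 of 138 paternal positions and 1 of 10 maternal and 1 of 8 paternal windows at an unadjusted p under 0.05, against the same backgrounds.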

How the data were processed

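The authors trimmed single-end dark-cycle eRRBS reads with Trim Galore, mapped with Bismark (mm10, polymorphic bases masked), assigned reads to a parental genome with SNPsplit without C/T differences, and made the calls with the Bismark methylation extractor (0.13.0 per the file headers). The deposited files hold 1 methylation call per line, which is neither a count nor a percentage and has no normalisation or filter. Removal of PCR duplicates is not given in the sources used here. Reads that carry the sequencer's filter mark were not removed.

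Calls were summed per position, allele and library, and positions with at least 10 calls in all 5 libraries were used, where the study asked for more than 20. For the 3 against 2 libraries, labels were permuted exactly (two-sided), with a smallest p of 0.1. Positions and gene windows were tested across all autosomes with a quasi-binomial model. Its dispersion was moderated by limma 3.58.1 in R 4.3.3 and kept at 1 or more, with Benjamini-Hochberg adjustment at 0.05 per allele. The model was run on simulated calls whose spread between libraries was set beforehand, not taken from these data. That run does not show what the model could call at the spread seen here. limma was also run on log2((mC + 0.5)/(C + 0.5)), where mC and C are methylated and unmethylated calls as was Fisher's exact test with calls pooled by group. Differences between alleles chose the classes and were not tested. Libraries of 1 group differed by more than sampling noise in every pair. Genes named with values were those with an allele-different position, those past the threshold and on each allele the 5 windows of 5 or more positions with the largest shift, plus genes named to account for the rest. The members and lists were chosen with earlier results of these data known. Python 3.11.15, numpy 2.4.6, pandas 2.3.3 and matplotlib 3.10.9 were used.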

Additional observations from a re-analysis of the deposited data

How the results depend on the processing

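The classes themselves depended on coverage: 43 allele-different positions with at least 5 calls, 26 with more than 20 calls and 29 with the strands summed, against 31, with none at Igf2r in either of the last settings. Differences below are depleted minus control in points. Over positions under 50 points apart, the paternal difference was 0.0631 with at least 5 calls, 0.0137 without marked reads and 0.506 with calls pooled, and the maternal one -0.212 with strands summed. For the paternal allele alone it was 1.21 without Mcts2, an alternative chosen after seeing the data. With 1 library left out at a time, the methylated allele ranged from -0.278 to 1.96, the unmethylated allele from -1.73 to -0.368, the gap from 0.641 to 3.19, positions under 50 points from -0.0716 to 0.489 (maternal) and -0.653 to 0.382 (paternal), the maternal allele alone from -1.74 to -0.572 and the paternal allele alone from -1.63 to 1.43. Called paternal positions ranged from 0 to 10. Fisher's exact test on pooled calls, which ignores the spread between libraries, called 7 of 297 maternal and 25 of 300 paternal positions. Over all autosomal positions it called 2.46% and 2.36%. It called 4 maternal and 7 paternal windows of 26 each, where it called 20% and 20.5% of all windows. limma and a prior fitted on all features called 0.

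Single genes turned in sign as follows. Zrsr1 on the methylated allele was -0.226 with at least 5 calls, -0.0767 with strands summed and -0.393 to 1.64 with 1 library left out. Peg13 on the unmethylated allele was -0.294 with at least 5 calls, and 0 to 0.901 with 1 library left out. The Dlk1 maternal window was 4.85 with more than 20 calls, which kept 1 of its 7 positions, whose value was 4.85 before, Snrpn on the unmethylated allele 0.0255 without marked reads, and the Igf2r paternal window -0.243 with calls pooled. Leaving out 1 library gave -1.83 to 0.761 (methylated) and -11.3 to 1.69 (unmethylated) at Gnas, -0.109 to 0.0467 (unmethylated) at Snrpn, -3.73 to 6.67 (methylated) and -0.711 to 2.45 (unmethylated) at Igf2r, -1.57 to 5.99 (methylated) at Impact and -13.0 to 0.466 for the H13 paternal window. The cause was not tested. Over the main comparisons 143 alternative values kept their direction or count, 12 turned in sign and 6 counts moved.

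The replicate numbers were not taken as pairs. Deviations of same-numbered libraries correlated at -0.0354 and 0.00577 on the maternal and -0.0241 and 0.0236 on the paternal allele. With 2 depleted libraries their deviations mirror each other, so these values cannot decide whether the numbers mark pairs. A replicate block on numbers 1 and 2, without Female control replicate 3, gave 0.785 for the methylated allele, -0.0716 for maternal positions under 50 points, 0.000835 for Snrpn unmethylated, -0.291 for Zrsr1 methylated and 0 calls. With 3 against 2 libraries no permutation p could pass the threshold, so these p-values say nothing of stability. The paternal values of Igf2r rest on 11 to 21 calls a position.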

Other observations

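Peg10, derived from a retrotransposon, had 93.6%, 97.7% and 95.7% paternal mC in controls and 90.7% and 91.6% in depleted libraries at 3 positions in a coding exon, with both depleted libraries below the controls (adjusted p = 1, quasi-binomial model). Fully methylated paternal reads there made up 83.9%, 93.1% and 86.4% against 72.2% and 73.5%, from 18 to 34 reads per library (exact permutation p = 0.1). These reads are drawn from the calls of the same 3 positions. Downstream of Peg13 (chromosome 15, 72805080 to 72805124) fully methylated maternal reads were higher with depletion. They made up 28.9%, 43.4% and 42.4% in controls and 46.9% and 56.5% in depleted libraries (45 to 66 reads, exact permutation p = 0.1). At Meg3 fully methylated paternal reads made up 22.2%, 71.1% and 81.0% in controls and 92.3% and 90.4% in depleted libraries, from 21 to 52 reads. In an intron of Trappc9 (chromosome 15, 72958425 to 72958473) 85.4% to 100% of paternal reads over 3 CpGs were mixed in every library. Of the 238 reads of all libraries, 0 were fully methylated. Whether the 3 CpGs differed in level from each other was not tested.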
